A study of Mus musculus with 8 samples.

Results

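The genes of semaphorin signalling were followed through the cell clusters of the embryonic mouse cortex and compared between wildtype and Pantr2 knockout. Membership went by symbol: every gene whose symbol starts with Sema, Plxn, Dpysl or Mical, and the genes Nrp1 and Nrp2. This gave 37 genes of the 14166 in the table, namely 18 semaphorin ligands, 10 receptors and 9 genes counted as intracellular effectors. The set itself was chosen with earlier results of these data known, so its shares of calls beside those of all genes are a description. Nuclei came from the dorsal telencephalon, the part of the embryonic forebrain that forms the cortex, of E15.5 embryos (the day of gestation). All samples were of the strain C57BL/6J. The control group held 4 wildtype samples and the other group 4 samples lacking Pantr2 (Pantr2-/-), a long noncoding RNA gene, with no other allele or agent named for either. The labels number the samples but do not say that each came from 1 embryo, so the p-values measure the spread between these samples. The counts of Pantr2 itself were not analysed here, and the genotype rests on the labels.

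Semaphorins are secreted or membrane-bound signals that steer growing axons and migrating neurons. Plexins are their receptors, and the secreted semaphorins of class 3 bind neuropilins, which act as co-receptors of the plexins. Inside the cell, the Dpysl proteins, also called collapsin response mediator proteins, bind microtubules. The enzymes Mical1, Mical2 and Mical3 take actin filaments apart by oxidation. Micall1 and Micall2 entered by their symbols and are not covered by that description. In the developing cortex this system is known for guiding callosal and corticofugal axons, for orienting dendrites and for the migration of neurons.

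The data held 67319 nuclei, 33781 wildtype and 33538 knockout, with 20446698 to 34083796 UMIs (unique molecular identifiers, which count captured transcript molecules) per sample. Pairs of libraries shared between 8 and 30 cell barcodes. Levels are given as CPM, counts per 1000000: the UMIs of a gene scaled to that total of the same sample and cluster, and are not corrected for gene length, so different genes are not ranked against each other. A cluster's CPM cannot tell fewer nuclei with a transcript from fewer UMIs per nucleus. The 7 deposited clusters were taken as they stand and named from marker genes. Cluster 1 (14604 nuclei) was upper-layer excitatory neuron-like, with Cux1, Cux2, Pou3f1 and Pou3f2. Cluster 2 (11679 nuclei) had 4 markers of subcerebral deep-layer neurons (Bcl11b, Fezf2, Ldb2, Sox5), but a corticothalamic marker, Hs3st4, stood among its leading genes, so it is called by its number. Cluster 3 (11583 nuclei) was corticothalamic deep-layer-like, with Tle4, Foxp2 and Tbr1. Cluster 4 (10948 nuclei) was apical progenitor-like, with 12 markers that included Pax6, Hes5 and Vim. Cluster 5 (7826 nuclei) held 5 markers of intermediate progenitors, such as Eomes and Neurog2, beside the upper-layer marker Unc5d among its leading genes, and is called by its number. Clusters 6 (5479 nuclei, led by Tafa1 and Grik1) and 7 (5200 nuclei, led by Zfp385b and Kctd16) matched no marker list. In wildtype replicate 3 the choroid plexus markers summed to 124.4 CPM and in wildtype replicate 4 to 37.97 CPM, against 0.342 to 3.49 CPM in the other 6 samples.

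Of the 37 genes, 31 reached 10 CPM or more in their highest cluster, and 12 had the same highest cluster in all 8 samples. The 6 below 10 CPM were Sema3d, Sema4a, Plxna1, Mical1, Micall1 and Micall2. Cluster 7 was the highest for 11 genes and cluster 2 for none. The remaining genes peaked in cluster 6 (7 genes), clusters 1 and 3 (6 each), cluster 4 (5) and cluster 5 (2). The clusters were built from the same nuclei and genes, so differences between clusters are a description with no test.

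**Figure D1:**
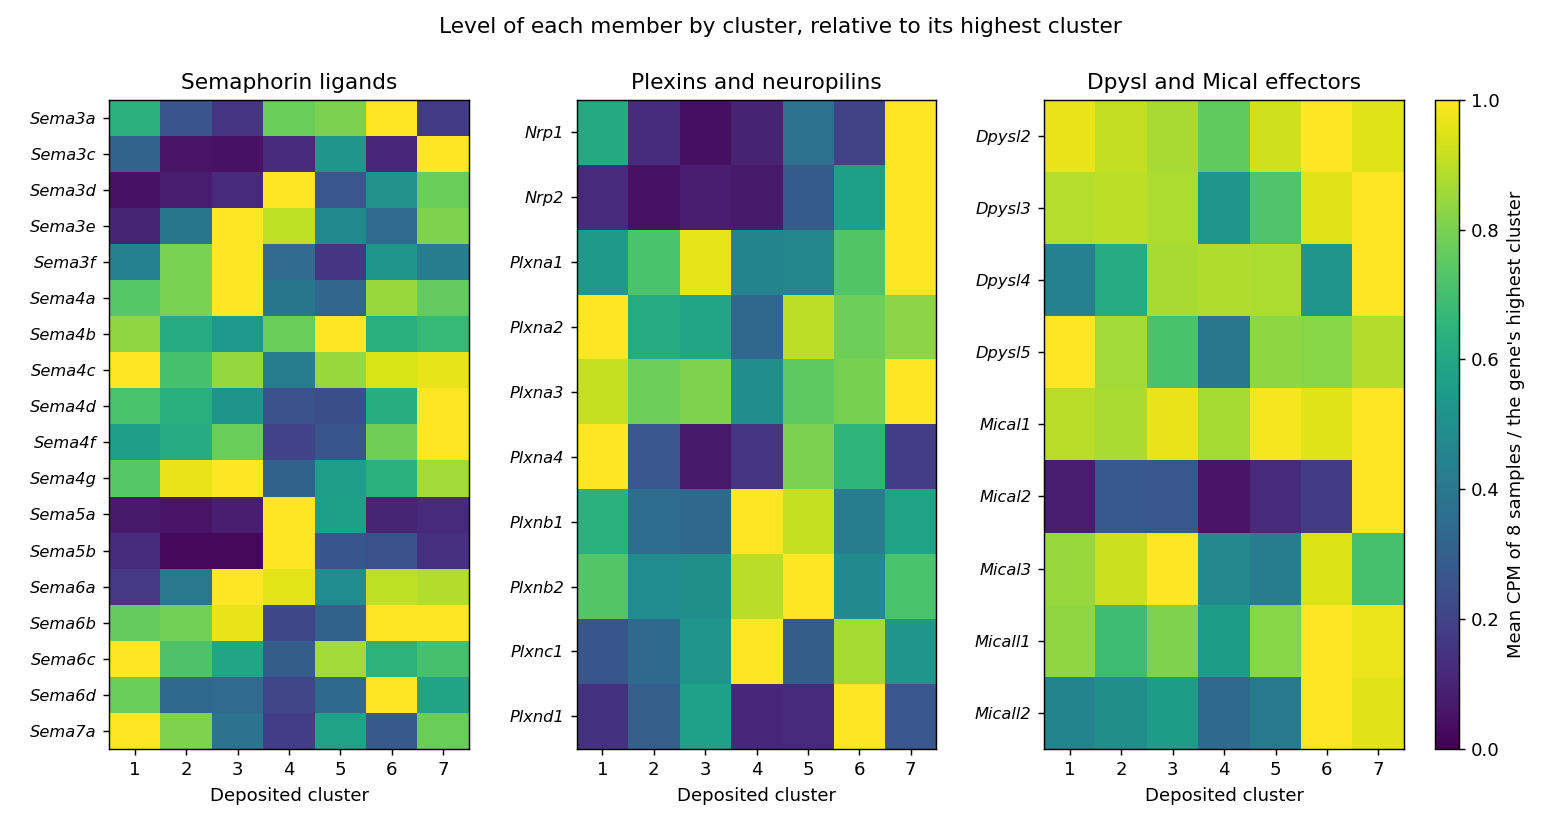
Mean CPM of each of the 37 genes over the 8 samples in the 7 deposited clusters (columns), divided by the gene's highest cluster (colour scale from 0 to 1), with ligands, receptors and effectors in separate panels. Sema5a and Sema5b peak in cluster 4, Sema3c, Nrp1, Nrp2 and Mical2 in cluster 7, and Plxna4 in cluster 1, while Dpysl2 is nearly even.

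The ligands with the most uneven levels were Sema5a, Sema3c and Sema5b. Sema5a and Sema5b are transmembrane semaphorins with thrombospondin repeats, and both were highest in the apical progenitor-like cluster 4. Sema5a lay between 595.2 and 979.1 CPM there (median 640.5, 8 samples), next highest in cluster 5 (268.0 to 532.9), and between 21.2 and 46.46 CPM in cluster 2, the lowest. Its level in cluster 4 was 9.59 times the median of the 7 clusters, and its samples in clusters 4 and 5 did not overlap. Sema5b lay between 568.1 and 819.6 CPM in cluster 4 (median 744.9) and between 155.1 and 239.2 CPM in cluster 5. Neither of the deep-layer clusters 2 and 3 had a sample above 26.7 CPM of Sema5b. Sema3c, a secreted semaphorin known to attract cortical axons, lay between 261.1 and 316.4 CPM in cluster 7, from 105.0 to 217.9 in cluster 5 and from 56.45 to 118.7 in cluster 1. In the corticothalamic-like cluster 3 it was lowest, between 6.804 and 19.38 CPM.

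Sema6d, a transmembrane ligand of A-type plexins, was highest in cluster 6 (502.9 to 776.3 CPM) and second in cluster 1 (354.7 to 684.5), and these ranges overlapped. Sema3f, a secreted ligand of Nrp2, and Sema3e, which binds Plxnd1 without a neuropilin, were both low and highest in cluster 3. Sema3f lay there between 16.47 and 24.3 CPM and Sema3e between 16.49 and 20.69 CPM. Each overlapped with its second cluster, which was cluster 2 for Sema3f (11.77 to 19.34) and cluster 4 for Sema3e (13.22 to 19.62). Sema7a, the membrane-anchored ligand of Plxnc1, was highest in cluster 1 in every sample (55.82 to 75.41 CPM) and lowest in cluster 4 (9.157 to 16.2).

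Among the receptors, both neuropilins were highest in cluster 7, the cluster that was also highest for Sema3c. Nrp2, the co-receptor for Sema3f and Sema3c, lay between 566.7 and 901.3 CPM in cluster 7, between 302.3 and 459.0 in cluster 6, and between 19.86 and 38.71 in cluster 2. Nrp1, the co-receptor for Sema3a, lay between 1149 and 1673 CPM in cluster 7 and between 740.2 and 941.2 CPM in cluster 1. In both deep-layer clusters Nrp1 was far lower, at 89.75 to 267.9 CPM in cluster 2 and 40.18 to 76.77 CPM in cluster 3. Cluster 7 thus had no sample in common with the range of any other cluster for either neuropilin.

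Plxna4, which pairs with Nrp1 to receive Sema3a and also binds class 6 semaphorins, had another order. It was highest in cluster 1 (1981 to 2852 CPM), with cluster 5 (1542 to 2262) and cluster 6 (1186 to 1913) next and overlapping their neighbours. It was lowest in cluster 3, between 62.21 and 257.8 CPM. Plxnd1, the receptor of Sema3e, was highest in cluster 6 at 13.91 to 31.48 CPM, and cluster 3 followed at 7.488 to 19.33. Plxnc1, the receptor of Sema7a, had its highest mean in cluster 4 (57.81 to 115.7 CPM), but cluster 6 (66.6 to 81.92) overlapped with it and cluster 4 was the highest in 4 of 8 samples, the wildtype ones. Its mean was lowest in cluster 1 (17.6 to 25.39), where its ligand was highest. Cluster 5 (15.23 to 32.35) spanned that range and cluster 2 (18.03 to 42.91) overlapped it. Sema7a was added after its values were seen, so this contrast was picked from the data. Plxnb1, the receptor of Sema4d, lay between 28.26 and 43.19 CPM in cluster 4 and between 25.06 and 36.65 in cluster 5. Plxnb1 overlaps the gene Gm7628 on the other strand, and whether counting used strand is not given in the sources used here.

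Of the effectors only Mical2 had a strongly uneven pattern. Mical2 lay between 216.4 and 275.3 CPM in cluster 7 and no higher than 97.7 CPM in any sample of another cluster, a level 5.79 times the median of the clusters. The microtubule-binding proteins Dpysl2, Dpysl3, Dpysl4 and Dpysl5 and the actin-oxidising enzyme Mical3 stayed within 1.08 to 1.2 times their cluster median at their highest. Dpysl2 (collapsin response mediator protein 2) ranged only from 836.4 to 1344 CPM over all 7 clusters and 8 samples. Dpysl5 was highest in cluster 1 in all 8 samples (381.9 to 522.0 CPM) and lowest in cluster 4 (154.3 to 214.8). Dpysl3 was likewise lowest in cluster 4 (254.8 to 333.1 CPM).

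Knockout was compared with wildtype on UMIs summed per sample with edgeR's quasi-likelihood test, and a gene is called where its Benjamini-Hochberg adjusted p over all genes tested is under 0.05. Over all nuclei 1 of the 37 genes was called, the receptor Plxnc1, against 5.26% of all 13926 genes tested. At an unadjusted p under 0.05 there were 11. Here and below, counts at an unadjusted p or with the replicate block have no share of all genes beside them. No excess can be read from such counts. Plxnc1 was at 55.59, 47.01, 44.12 and 50.04 CPM in the wildtype samples and 43.38, 41.93, 37.65 and 36.09 CPM in the knockout samples. Every knockout sample lay below every wildtype sample, by a narrow margin. The fold change was 1.23-fold lower (log2 −0.29 ± 0.07 SE, adjusted p = 0.0413, n = 4 per group, edgeR). The call was lost with sex as a covariate (adjusted p = 0.065) and without any 1 of wildtype replicates 1, 2 and 4 or of the 4 knockout replicates, with adjusted p up to 0.139. Cluster 4, highest for Plxnc1 at a mean of 84.65 CPM, held 1658, 1152, 787 and 1165 nuclei in wildtype and 1875, 2145, 1212 and 954 in knockout. Cluster 6, second highest for Plxnc1 at a mean of 73.24 CPM, held 856, 791, 1028 and 849 nuclei in wildtype and 596, 623, 422 and 314 in knockout. All clusters together held 8124 to 9062 nuclei per wildtype sample and 7280 to 10921 per knockout sample. The part of such cluster sizes in the calls over all nuclei was not tested. With the replicate number as a block, 6 genes were called over all nuclei: Plxnc1, Sema3c, Sema4f, Sema6c and Mical3 lower and Sema4d higher in knockout. Sema6c had the strongest of these (log2 −0.43, blocked adjusted p = 0.00212, against 0.0591 without the block).

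Within clusters, 243 tests of these genes gave 18 calls, or 7.41%, against 3.69% over all genes and clusters (2906 of 78692). As the set was chosen with earlier results known, these shares and those below test no excess. In knockout 13 calls were lower and 5 higher. They fell on 13 genes (8 ligands, 4 receptors and 1 effector), 5 of them called in 2 clusters (Sema3a, Sema3c, Sema4d, Sema6c and Mical2). The genotypes did not overlap in 17 of the 18. A call itself selects for such separation, and no share over the calls of all genes is given, so this adds no support. The calls were 7 each in clusters 1 and 2, 3 in cluster 4 and 1 in cluster 5.

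**Figure D2:**
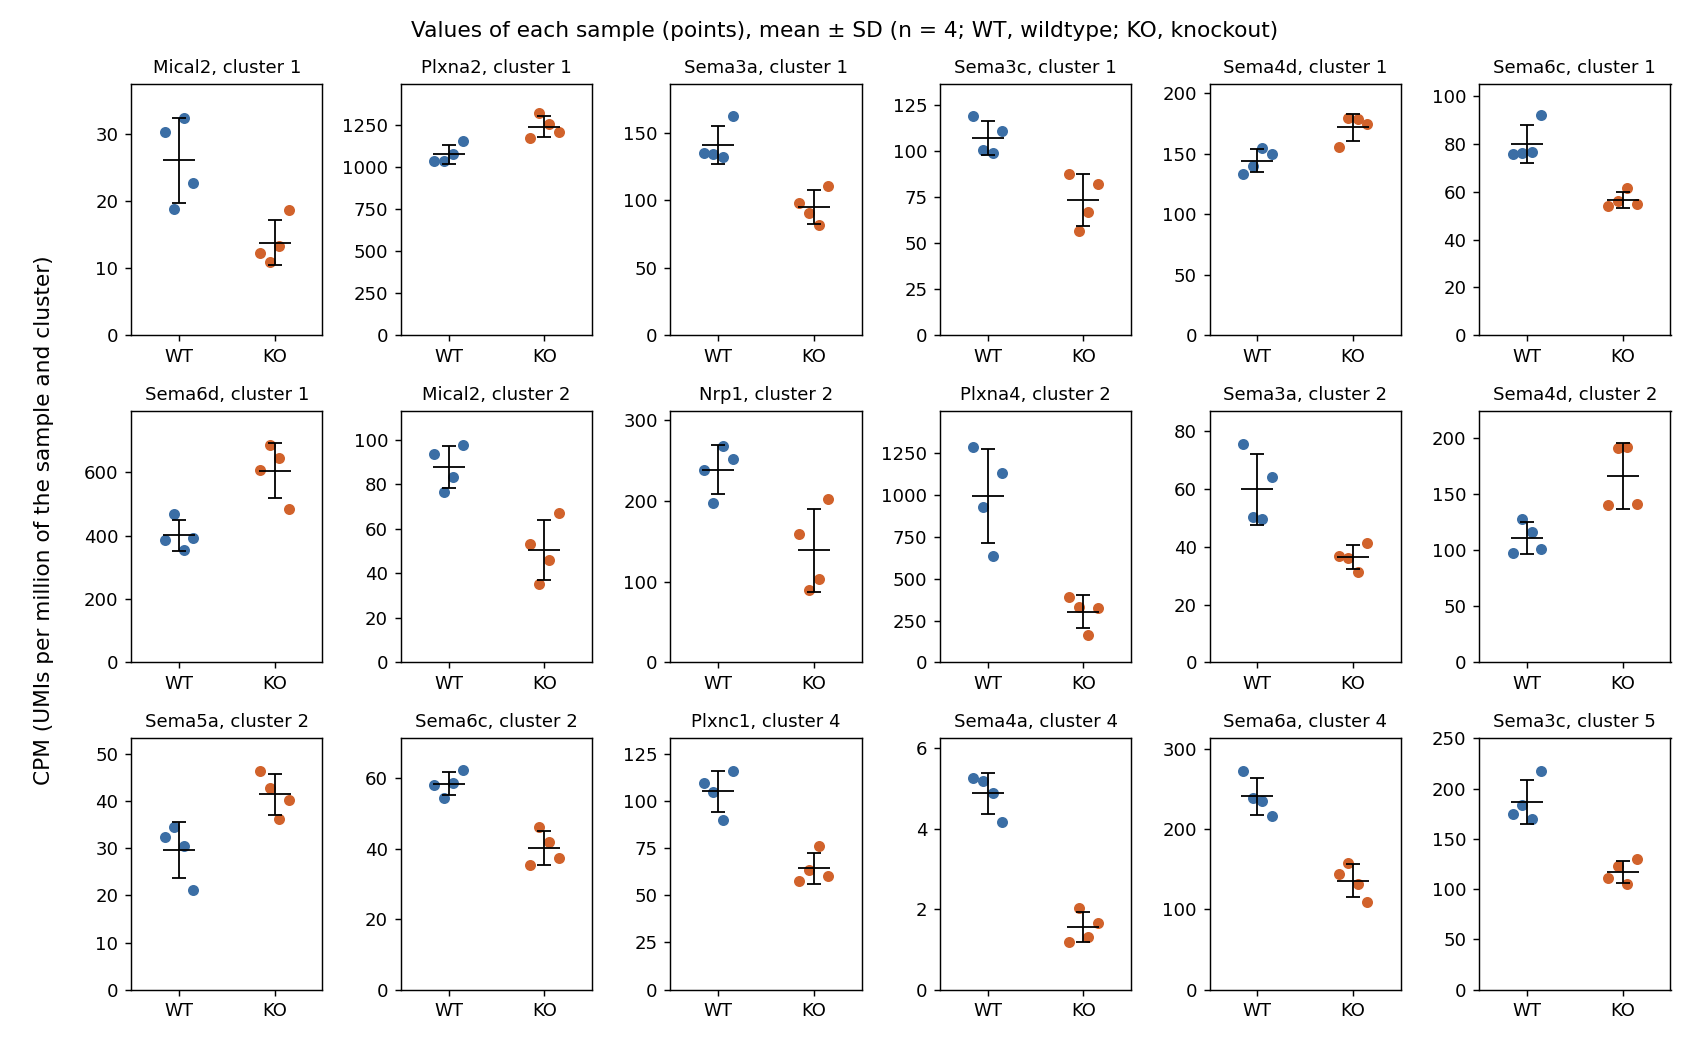
CPM of every sample for the 18 calls within clusters, in panels by gene and cluster. Points are samples, the bars give the mean ± SD of 4 samples (blue wildtype, WT; orange knockout, KO), and each axis starts at 0. The 2 groups overlap only for Nrp1 in cluster 2, where a knockout sample (201.9) lies above a wildtype sample (196.7).

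In cluster 2, 7 of the 36 genes tested were called (19.4%, against 9.11% of all genes tested in this cluster). The receptors Plxna4 and Nrp1, the ligands Sema3a and Sema6c and the effector Mical2 fell in knockout (5 of 36, against 5.19% of all genes), and the ligands Sema4d and Sema5a rose (2 of 36, against 3.92%). The median log2 fold change of the genes was −0.07, beside 0.00 for all genes. Plxna4 (chr6:32144543-32588192, minus strand, GRCm38) had the largest change. Its wildtype samples lay at 1283, 925.6, 633.5 and 1131 CPM and its knockout samples at 390.6, 332.6, 161.6 and 323.1 CPM. The highest knockout sample was well below the lowest wildtype sample. Plxna4 was 3.29-fold lower in knockout (log2 −1.72 ± 0.24 SE, adjusted p = 0.000482).

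Nrp1 (chr8:128358591-128505476, plus strand), the neuropilin that joins Plxna4 in the Sema3a receptor, was at 237.5, 196.7, 267.9 and 251.2 CPM in wildtype and at 158.9, 89.75, 103.7 and 201.9 CPM in knockout. Knockout replicate 4 lay within the wildtype range. The change was 1.73-fold lower (log2 −0.79 ± 0.20 SE, adjusted p = 0.0240). It was not called by DESeq2, nor without any 1 of wildtype replicates 1, 3 and 4 or knockout replicates 2 and 3 (adjusted p up to 0.0869). Sema3a (chr5:13124822-13603485, plus strand), the secreted ligand of this receptor pair, was at 75.31, 50.33, 49.52 and 63.83 CPM in wildtype and at 36.86, 36.16, 31.37 and 41.11 CPM in knockout. The groups were apart. The fold was 1.65-fold lower (log2 −0.72 ± 0.13 SE, adjusted p = 0.00388).

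Mical2 (chr7:112225825-112355194, plus strand) showed 93.31, 76.64, 83.3 and 97.7 CPM in the wildtype samples of cluster 2 and 52.97, 35.41, 46.18 and 67.22 CPM in the knockout samples. It was 1.75-fold lower with no overlap (log2 −0.81 ± 0.15 SE, adjusted p = 0.00381). Sema6c (chr3:95160420-95174050, plus strand), a transmembrane semaphorin, was at 58.1, 54.42, 58.65 and 62.44 CPM against 35.31, 46.09, 41.83 and 37.48 CPM. All 4 knockout samples lay below the wildtype samples, and the fall was 1.44-fold (log2 −0.53 ± 0.10 SE, adjusted p = 0.00341).

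In the other direction, Sema4d (chr13:51685529-51793678, minus strand), the ligand of Plxnb1, was at 98.0, 128.0, 116.8 and 101.4 CPM in wildtype and at 140.9, 191.5, 191.9 and 141.7 CPM in knockout. It was 1.51-fold higher with no overlap (log2 0.60 ± 0.12 SE, adjusted p = 0.00754). Sema5a (chr15:32244813-32696341, plus strand), at its lowest in this cluster, was at 32.47, 34.49, 30.58 and 21.2 CPM against 46.46, 42.91, 36.16 and 40.38 CPM. The groups were apart by under 2 CPM. Its rise of 1.40-fold (log2 0.48 ± 0.13 SE, adjusted p = 0.0407) was lost without nuclei that carried 2 or more UMIs of interneuron and striatal markers (adjusted p = 0.0573). It was also lost without any 1 of wildtype replicates 1, 3 and 4 or knockout replicates 1, 2 and 4 (adjusted p up to 0.11). With the replicate block 3 more genes passed in cluster 2: Sema3e (log2 −0.80, blocked adjusted p = 0.0162), Sema6d (log2 −0.26, 0.0299) and Plxna2 (log2 0.24, 0.0441).

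In the upper-layer-like cluster 1, 7 of 36 genes were called (19.4%, against 4.84% of all genes tested there), 4 lower (against 2.3% of all genes) and 3 higher (against 2.54%) in knockout. The ligands Sema3a, Sema3c and Sema6c and the effector Mical2 fell, and Sema6d, Sema4d and the receptor Plxna2 rose. Sema6d (chr2:124089943-124667789, plus strand) was at 386.7, 468.8, 354.7 and 391.5 CPM in wildtype and at 606.9, 684.5, 643.9 and 484.6 CPM in knockout. The knockout samples all lay above the wildtype samples. It was 1.55-fold higher (log2 0.63 ± 0.10 SE, adjusted p = 0.00201), the strongest call of this cluster. Plxna2 (chr1:194619791-194816869, plus strand), a receptor for Sema6a, was at 1032, 1034, 1075 and 1154 CPM against 1172, 1318, 1252 and 1206 CPM, 1.18-fold higher (log2 0.24 ± 0.06 SE, adjusted p = 0.0474). Sema4d was at 133.5, 139.7, 154.5 and 149.7 CPM against 155.4, 179.3, 178.9 and 174.4 CPM, 1.22-fold higher (log2 0.29 ± 0.07 SE, adjusted p = 0.0387). For both genes the groups were close but did not overlap. The Plxna2 call was lost with sex as a covariate (adjusted p = 0.0604) and without any 1 of wildtype replicates 1, 2 and 3 or knockout replicates 2, 3 and 4 (adjusted p up to 0.162). The Sema4d call was lost without any 1 of wildtype replicates 1, 2 and 4 or knockout replicates 2, 3 and 4 (adjusted p up to 0.135).

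Of the genes that fell in cluster 1, Sema3a was at 134.9, 134.6, 131.9 and 162.4 CPM in wildtype and at 97.99, 90.53, 81.41 and 110.7 CPM in knockout. The groups were well apart, with a 1.46-fold fall (log2 −0.55 ± 0.09 SE, adjusted p = 0.00333). Sema6c was at 75.83, 76.04, 76.48 and 92.03 CPM against 54.03, 56.2, 61.49 and 54.83 CPM. All 4 knockout samples again lay below all wildtype samples, 1.38-fold (log2 −0.47 ± 0.08 SE, adjusted p = 0.00408). Sema3c (chr5:17574816-17730268, plus strand) was at 118.7, 100.7, 98.67 and 110.5 CPM against 87.56, 56.45, 67.1 and 81.87 CPM, 1.46-fold lower with no overlap (log2 −0.54 ± 0.11 SE, adjusted p = 0.0113). Without knockout replicate 3 its adjusted p was 0.0591. Mical2 was at 30.2, 18.81, 32.3 and 22.7 CPM against 12.3, 10.93, 13.34 and 18.62 CPM. Its groups nearly touched, and it was 1.85-fold lower (log2 −0.89 ± 0.20 SE, adjusted p = 0.0177). That call was lost without wildtype replicate 3 (adjusted p = 0.0546) and without knockout replicate 2 or 3 (up to 0.0912). With the replicate block Sema6b was called as well (log2 −0.49, blocked adjusted p = 0.0427).

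Upstream sequences of 3 genes that fell in cluster 1 are shown because they fell together there; Sema3c lay in annotated exons and is not shown. Each is the 250 bases before a RefSeq transcript start, 5′ to 3′ on the plus strand of GRCm38.p6, with E-boxes (CANNTG, the site of basic helix-loop-helix factors) in capitals. Mical2 lies at chr7:112225586-112225835, whose last bases run past the gene start at chr7:112225825, so they are not upstream of the gene. Sema3a lies at chr5:13396534-13396783, where the start falls inside the annotated gene, and Sema6c at chr3:95160170-95160419. Sema6c has a second RefSeq start, whose window (chr3:95164089-95164338, 33 bases in annotated exons) is not shown and holds 2 E-boxes and no GC box.
Mical2: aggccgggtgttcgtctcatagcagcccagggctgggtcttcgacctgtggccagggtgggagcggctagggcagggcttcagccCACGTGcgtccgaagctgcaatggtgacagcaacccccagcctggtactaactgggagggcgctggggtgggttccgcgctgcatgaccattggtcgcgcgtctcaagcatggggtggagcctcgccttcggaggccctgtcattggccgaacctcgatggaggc
Sema3a: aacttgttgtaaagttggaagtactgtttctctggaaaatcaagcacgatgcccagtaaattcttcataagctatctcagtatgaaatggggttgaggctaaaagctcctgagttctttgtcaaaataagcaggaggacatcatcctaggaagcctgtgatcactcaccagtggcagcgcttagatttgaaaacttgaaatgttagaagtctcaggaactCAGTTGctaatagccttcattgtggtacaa
Sema6c: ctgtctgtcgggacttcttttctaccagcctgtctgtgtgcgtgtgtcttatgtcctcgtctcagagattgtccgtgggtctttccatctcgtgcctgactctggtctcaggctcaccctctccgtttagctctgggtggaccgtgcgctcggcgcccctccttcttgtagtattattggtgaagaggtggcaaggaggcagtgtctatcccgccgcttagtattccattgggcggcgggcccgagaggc
Of the windows shown, Mical2 and Sema3a hold 1 E-box each and Sema6c none, where 66.2% of 32851 mouse promoters of this length hold at least 1. The GC box GGGCGG, searched on both strands, was found once, in Sema6c, and occurs in 32.7% of promoters. Neither TATAAA (12.4% of promoters) nor AACAAT (9.42%) was found in any of the 3. The GC content was 66.0% for Mical2, 57.6% for Sema6c and 40.8% for Sema3a, beside a median of 52.4%.

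In the apical progenitor-like cluster 4, 3 of the 34 genes tested were called (8.82%, against 4.29% of all genes tested), all lower in knockout (against 3.12% lower of all genes): Sema6a, Plxnc1 and Sema4a. Sema6a, a transmembrane ligand of Plxna2 and Plxna4, was at 271.8, 238.6, 235.5 and 216.6 CPM in wildtype and at 143.9, 157.3, 131.6 and 109.1 CPM in knockout. No knockout sample came near the wildtype range. It was 1.74-fold lower (log2 −0.80 ± 0.11 SE, adjusted p = 0.000994). Plxnc1 (chr10:94790866-94945015, minus strand) was at 109.6, 104.9, 89.75 and 115.7 CPM against 57.81, 63.2, 76.13 and 60.15 CPM, and the groups were apart. It was 1.61-fold lower (log2 −0.69 ± 0.10 SE, adjusted p = 0.00200). Sema4a (chr3:88435959-88461182, minus strand), a transmembrane semaphorin, rested on few molecules, 71 UMIs in wildtype and 31 in knockout. It was at 5.247, 5.188, 4.882 and 4.16 CPM against 1.194, 2.02, 1.308 and 1.652 CPM, 3.02-fold lower (log2 −1.59 ± 0.25 SE, adjusted p = 0.00349), with no overlap. These 3 calls held under each of 14 other settings, from replicates left out to DESeq2.

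In cluster 5, 1 of 30 genes was called (3.33%, against 1.77% of all genes tested). At an unadjusted p under 0.05 there were 10, with no share of all genes to set beside them. Sema3c was at 174.7, 183.3, 169.3 and 217.9 CPM in wildtype and at 110.6, 123.2, 105.0 and 129.5 CPM in knockout. The gap between the groups was wide, and the fall was 1.57-fold (log2 −0.65 ± 0.10 SE, adjusted p = 0.00272). In cluster 7, where Sema3c is highest, it averaged 293.4 ± 22.4 CPM (SD, n = 4) in wildtype and 279.3 ± 15.2 CPM in knockout, and was not called (adjusted p = 0.933). With the replicate block Nrp1 was called higher in cluster 5 (log2 0.36, blocked adjusted p = 0.0239), where its knockout samples (510.6 to 678.5 CPM) all lay above its wildtype samples (411.7 to 496.9). It was also called there by edgeR without knockout replicate 1 (log2 0.44, adjusted p = 0.0244).

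With all samples and genotype as the only term, no gene was called by edgeR in clusters 3 (0 of 36, against 3.36% of all genes tested), 6 (0 of 35, against 0.779%) and 7 (0 of 36, against 1.03%). Their counts at an unadjusted p under 0.05 were 5, 7 and 4, again with no share of all genes beside them. DESeq2 called Sema6d lower in cluster 3 (log2 −0.46, adjusted p = 0.0216, beside 0.0549 with edgeR) and no gene in clusters 6 and 7. With the replicate block 4 calls appeared here: Sema6d (log2 −0.48, blocked adjusted p = 0.0102) and Nrp2 (−0.50, 0.0378) in cluster 3, Sema5a (−0.60, 0.00779) in cluster 6 and Nrp2 (−0.29, 0.0299) in cluster 7. In cluster 3 Sema6d was also called by edgeR with no filter on low counts (adjusted p = 0.0483), with sex as a covariate (0.00675) and without knockout replicate 1 (0.0102), and Sema6c without wildtype replicate 1 (0.0319). In cluster 6 Nrp1 was called without knockout replicate 4 (log2 −0.59, adjusted p = 0.0125) and Sema4d without knockout replicate 1 (log2 0.48, 0.0367).

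Whether a genotype effect differed between clusters was tested itself, in 1 fit over all samples and clusters. The effect differed for 10 of the 37 genes (27.0%, against 9.12% of 12933 genes tested). They were the ligands Sema6a, Sema6d, Sema3a, Sema4a and Sema5a, the receptors Plxna4, Nrp1 and Plxnc1, and the effectors Mical2 and Dpysl4. Sema6a had the smallest adjusted p, 2.308e-08: beside its fall in cluster 4, its log2 fold change was 0.36 ± 0.11 in cluster 5 and 0.32 ± 0.12 in cluster 1, neither of which was called. For Sema6d (adjusted p = 1.388e-05) the rise in cluster 1 stood beside log2 fold changes of −0.61 ± 0.23 in cluster 4 and −0.47 ± 0.12 in cluster 3. Neither was called by edgeR with all samples, the low-count filter and genotype as the only term. In cluster 4 edgeR called Sema6d with sex as a covariate (log2 −0.85, adjusted p = 0.0143) and without knockout replicate 1 (−0.91, 0.0136). Plxna4 (2.92e-05) had a log2 fold change of −1.72 in cluster 2 and values between −0.34 and 0.26 in the other 6 clusters. In cluster 1, where Plxna4 is highest, it averaged 2578 ± 205 CPM in wildtype and 2216 ± 251 CPM in knockout, and was not called (adjusted p = 0.282). Nrp1 (0.000561) ranged from −0.79 in cluster 2 to 0.45 in cluster 4. Sema4d (0.0603) and Sema3c (0.0853) did not pass this test.

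**Figure D3:**
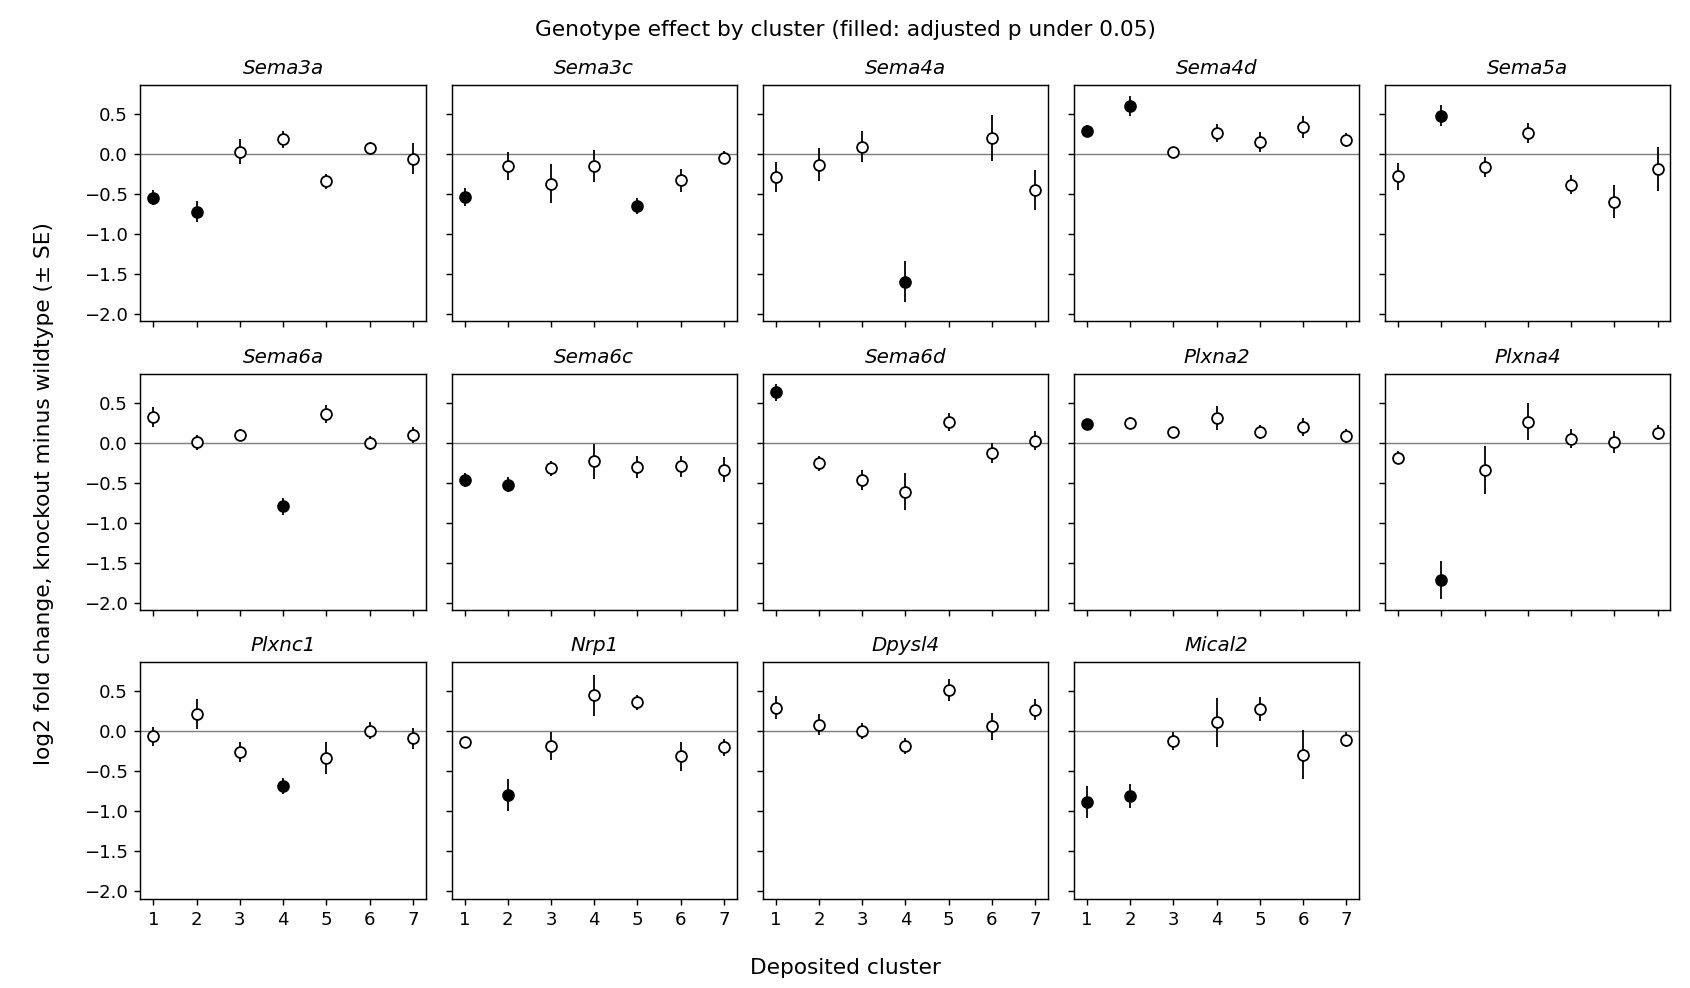
Log2 fold change, knockout minus wildtype, in each deposited cluster for the 14 genes called within a cluster or in the test between clusters. Bars are ± 1 SE and filled points have an adjusted p under 0.05 in that cluster. Plxna4 departs from 0 in cluster 2 at −1.72, Sema6a in cluster 4 at −0.80 and Sema6d in cluster 1 at 0.63, while Sema6c lies below 0 in all 7 clusters.

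Dpysl4, a microtubule-binding protein of the collapsin response family, was called in the test between clusters (adjusted p = 0.00732). With all samples and genotype as the only term it was called in no single cluster. In cluster 5 it was at 22.25, 23.89, 23.88 and 24.17 CPM in wildtype and at 25.92, 38.86, 32.12 and 33.24 CPM in knockout. The groups did not overlap, but the change was not called (log2 0.52 ± 0.14 SE, adjusted p = 0.0976). Without knockout replicate 1, Dpysl4 was called there by edgeR (log2 0.62, adjusted p = 0.0230). In cluster 4 its log2 fold change was −0.18 ± 0.10. The call between clusters was lost for Dpysl4 without wildtype replicate 4 or knockout replicate 2, for Sema4a without wildtype replicate 1, for Plxnc1 on leaving out wildtype replicate 1, wildtype replicate 4 or knockout replicate 2, and for Sema5a on leaving out any of these 3 or knockout replicate 3.

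Markers of neuron classes, among them classes of the clusters' own markers, moved with genotype in clusters 1 and 2. In cluster 2 the subcerebral deep-layer list summed to 6784 to 8181 CPM in wildtype and 9141 to 11080 CPM in knockout. Its called markers there did not all move one way: of Bcl11b, Sox5 and Crim1, 1 was lower. In cluster 1 the list summed to 2238 to 2742 against 3486 to 4778 CPM (Bcl11b, Fezf2 and Sox5 called higher), with no overlap in either cluster. The corticothalamic deep-layer list stood at 2019 to 2590 against 3297 to 3376 CPM in cluster 2 (Tbr1, Hs3st4, Zfpm2 and Nxph3 called higher) and at 417.2 to 541.1 against 587.4 to 808.1 CPM in cluster 1 (Foxp2 and Zfpm2 called higher), again without overlap. Of 6 upper-layer markers, Cux1, Cux2, Pou3f1 and Pou3f2 were called lower in cluster 1, and 5 were called in cluster 2, 4 of them lower. Several calls of clusters 1 and 2 were not kept in every fit that was run, among them Plxna4 and Sema3a in cluster 2 and Sema6d in cluster 1.

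Other cell types moved with genotype too. In cluster 4 the apical progenitor list itself stood at 4171 to 4840 CPM in wildtype and 3215 to 3404 CPM in knockout, beside the falls of Sema6a, Plxnc1 and Sema4a. There the interneuron list stood at 127.7 to 175.6 against 48.63 to 127.7 CPM, the 5 oligodendrocyte precursor markers at 12.68 to 13.89 against 1.983 to 4.263 CPM (Olig1 and Olig2 called lower), and the pericyte list at 34.39 to 45.25 against 16.71 to 29.0 CPM. In cluster 5, beside the fall of Sema3c, the interneuron list stood at 77.31 to 108.6 against 36.23 to 84.24 CPM. Lists without overlap there were the subcerebral (1673 to 1826 against 2144 to 2933 CPM, Bcl11b and Sox5 called higher), the corticothalamic (1491 to 1607 against 1815 to 2198 CPM) and the Cajal-Retzius list (58.01 to 96.64 against 116.1 to 139.1 CPM, Reln called higher), and the upper-layer marker Pou3f2 was called lower. In cluster 1 the interneuron list stood at 64.87 to 92.99 against 30.61 to 50.67 CPM (4 markers called lower) and the striatal list at 41.09 to 67.76 against 17.6 to 29.43 CPM (Isl1 and Ebf1 called lower). In cluster 2 they stood at 61.06 to 74.14 against 26.42 to 56.68 CPM (3 called lower) and at 25.56 to 52.07 against 15.03 to 22.3 CPM (Isl1 and Ebf1 called lower). With nuclei carrying 2 or more UMIs of interneuron and striatal markers left out, 17 of the 18 cluster calls were kept, among them Sema6a, Plxnc1 and Sema4a in cluster 4. The part of the progenitor, oligodendrocyte precursor, pericyte and Cajal-Retzius lists in these results was not tested.

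The wider pathway was followed with 35 partner genes found of 40 listed: co-receptors, proteases, GTPases, their regulators and kinases. Over all nuclei 1 of 35 was called (against 5.26% of all genes), Met, a receptor tyrosine kinase that associates with B-type plexins. At an unadjusted p under 0.05 there were 4, with no share of all genes beside them. Met was at 10.68, 9.067, 13.3 and 10.44 CPM in wildtype and at 5.338, 3.961, 5.45 and 6.065 CPM in knockout. The groups were far apart, and Met was 2.09-fold lower (log2 −1.07 ± 0.16 SE, adjusted p = 0.00681). Met was highest in cluster 6 (mean 22.74 CPM), which held fewer nuclei in each knockout sample than in any wildtype sample, and the part of this was not tested.

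Within clusters 10 of 218 partner tests were called (4.59%, against 3.69% of the tests of all genes), 4 higher and 6 lower in knockout. Met fell 4.96-fold in cluster 2, on 127 UMIs in wildtype and 24 in knockout, and 2.31-fold in cluster 3 (adjusted p = 0.00225 and 0.00208). Chl1, an adhesion molecule that binds Nrp1, fell 1.74-fold in cluster 7, from 569.8 ± 21.2 to 321.5 ± 74.1 CPM (adjusted p = 0.00161), and 1.62-fold in cluster 5 (adjusted p = 0.0315). Nrcam, an adhesion molecule that binds Nrp2, fell 1.47-fold in cluster 2, from 451.7 ± 16.4 to 305.8 ± 41.2 CPM (adjusted p = 0.000926). Cntn2, an axonal adhesion molecule, rose in cluster 1 (180.0 ± 5.12 to 243.5 ± 29.6 CPM, adjusted p = 0.00370) and in cluster 2 (48.9 ± 3.47 to 83.61 ± 10.1 CPM, adjusted p = 0.000223). Farp1 was called lower in cluster 2 (log2 −0.26) and higher in cluster 5 (log2 0.31), and Ranbp9, a scaffold bound by A-type plexins, higher in cluster 2 (log2 0.29). The genotype effect differed between clusters for 6 of the 34 partners tested (17.6%, against 9.12% of all genes): Farp1, Chl1, Met, Rnd3, Nrcam and Cntn2. Of these, Met was lost without knockout replicate 3 (edgeR adjusted p = 0.0542), Rnd3 without wildtype replicate 1 (0.0735), and Nrcam and Cntn2 without wildtype replicate 4 (0.0528 and 0.151). The call of Chl1 in cluster 5 was lost under 5 of 14 other settings, that of Farp1 under 9 in cluster 2 and 7 in cluster 5, and that of Ranbp9 under 6.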

How the data were processed

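Nuclei of 8 samples (4 wildtype, 4 Pantr2 knockout) were profiled by droplet RNA sequencing (10x Genomics, 3′ kit of version 2, per the labels). The values used are the counts that the authors deposited, whole UMIs per gene and nucleus that were not normalised, and 1 gene has no symbol. The submitters' processing notes name kallisto, bustools and mm10, and settings are not given in the sources used here. The deposited cluster numbers are another deposited value and were used as they stand. The deposited hybrid doublet scores do not exceed 0.5, so no doublet caller was run and all nuclei, each with 1496 UMIs or more, were kept. The deposited nuclei of each sample carry 1 library date, and the dates were not compared between samples. Gene positions and promoters are from RefSeq (GRCm38.p6), where 30 of 37 genes had a promoter entry.

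For each sample the UMIs of all nuclei, and of each cluster, were added up and fitted with edgeR 4.0.16 (R 4.3.3): TMM, filterByExpr, quasi-likelihood test, genotype as the only term, Benjamini-Hochberg over all genes tested, threshold 0.05. CPM are printed without TMM factors, and SE is from the F statistic. The test between clusters had sample as a block and cluster as terms. On simulated counts in which 200 genes differed by 1 on the log2 scale, 90.5% of these were recovered over all nuclei (13926 genes), 84% in cluster 2 (11538 genes), 81% in cluster 7 (10548 genes) and 73.5% in the test between clusters (12933 genes). Alternatives were DESeq2 1.42.0 and its size factors, no filter, the replicate block, sex (by Xist, 3 female wildtype and 2 female knockout samples), nuclei with other markers left out, and each sample left out. A marker gene, the list sum that rests on it and an alternative added after seeing the data that needs it are not reported here, so the counts of settings do not cover that alternative, in which several calls of clusters 1 and 2 were not kept, among them Plxna4 and Sema3a in cluster 2 and Sema6d in cluster 1.

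Same-numbered samples of the 2 groups deviated together from their group means. Their correlations across genes were 0.398, 0.185, 0.193 and 0.180, all over 0.1, so the replicate numbers of the labels were taken to pair the samples. Some samples of unlike number were also over 0.1: wildtype 3 with knockout 4 (0.287), wildtype 2 with knockout 3 (0.167) and wildtype 1 with knockout 2 (0.113). Wildtype 3 and knockout 4 thus matched each other better than their own numbers, and the pairing remains uncertain. The pairing comes from the data, as the labels do not say what a number marks.

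The genes and lists were chosen with earlier results of these data known. Genes were named if called (at most 20), if their level differed most between clusters (at least 10 CPM in the highest cluster, up to 6 ligands, 6 receptors and 6 effectors by the ratio to the cluster median), or if called in the test between clusters, and up to 6 called partners. Sema7a was added after its values were seen. A cluster was named from marker lists unless its 10 leading genes pointed to another class. Summed levels of the remaining lists over all nuclei and both genotypes were 32.8 to 62.4 CPM for Cajal-Retzius cells, 238.8 to 593.7 for erythroid cells and 9.013 to 13.48 for pericytes. They were 40.08 to 96.57 for striatal neurons, 35.03 to 104.5 for interneurons and 200.0 to 375.3 for intermediate progenitors. In each of these lists the genotypes overlapped. The genotypes did not overlap for endothelial cells (11.95 to 12.66 CPM in wildtype against 10.1 to 10.91 in knockout) and microglia (7.454 to 9.534 against 5.869 to 6.191), with no marker called. Nor did they for oligodendrocyte precursors (5.057 to 7.584 against 1.928 to 2.572, Olig1 and Olig2 called lower).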

Additional observations from a re-analysis of the deposited data

Results flagged for a closer look

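In groups of 4 or 8 samples, 56 were examined for a sample that stands apart from its group by Dixon's criterion, and 3 were found, where chance alone marks about 1 group in 20. Wildtype replicate 4 was the highest for Sema3a in cluster 1 (162.4 CPM, the other 3 wildtype samples at 131.9 to 134.9) and for Sema6c in cluster 1 (92.03 CPM, the others at 75.83 to 76.48). In both cases the sample lies farther from the knockout group, and both calls were kept without it. Knockout replicate 2 was the highest of the 8 samples for Sema5a in its highest cluster, cluster 4, at 979.1 CPM.

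The genotype effect differed between clusters for 10 genes, with adjusted p from edgeR's joint test of 2.308e-08 for Sema6a, 1.388e-05 for Sema6d, 2.92e-05 for Plxna4, 0.000203 for Sema3a, 0.000561 for Nrp1, 0.00352 for Sema4a, 0.00576 for Mical2, 0.00732 for Dpysl4, 0.0122 for Plxnc1 and 0.0229 for Sema5a. The lowest and highest log2 fold changes among the clusters were −0.80 and 0.36 for Sema6a, −0.61 and 0.63 for Sema6d, −0.89 and 0.28 for Mical2, and −0.59 and 0.48 for Sema5a.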

How the results depend on the processing

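Of the 18 calls within clusters, 12 were kept under all 14 alternative settings reported, a count that does not cover every fit run: several calls of clusters 1 and 2, Plxna4 and Sema6d among them, were not kept in all. The number of genes called over all nuclei (1) became 3 with DESeq2, 2 without nuclei carrying other markers and 0 to 3 with 1 sample left out. In the paired fit with the replicate block it became 6, the calls within clusters became 27 with all 18 kept, partner calls over all nuclei became 3 and partner calls within clusters 12. The share of all genes under that fit is not given, so no excess can be read from these counts. The 18 calls ranged from 13 to 23 with 1 sample left out, the 10 genes that differed between clusters from 7 to 12, the partner call over all nuclei (Met) from 1 to 2, and the 10 partner calls within clusters from 6 to 11. Partner calls over all nuclei were 2 with DESeq2 and 2 with sex as a covariate. The causes of these changes were not tested. Few molecules stand behind Sema4a in cluster 4 (71 UMIs in wildtype, 31 in knockout) and Met in cluster 2 (127 and 24), and some with fewer, such as Mical1 in cluster 7 (17 and 29), did not pass the filter and were not tested.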
